A study of Mus musculus with 20 samples.

Results

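The mitochondrial ribosomal protein genes were examined in embryonic mouse hearts with and without the histone methyltransferase Kmt2d. All 75 genes whose symbol starts with Mrpl or Mrps followed by a number and at most 1 letter were taken from the 33495 genes of the deposited table, a rule that uses symbols only. Their products are imported into mitochondria, where they form the large and small subunits of a ribosome that translates the few proteins encoded by the mitochondrial genome, all of them parts of the respiratory chain and ATP synthase. The adult heart depends on this machinery because its cardiomyocytes take most of their ATP from oxidative phosphorylation. Mitochondria are still maturing as the embryonic heart grows. Some of these proteins descend from bacterial ribosomal proteins and others occur in mitochondria only.

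RNA-seq had been performed on 20 libraries from 3 Cre lines on a C57BL/6 background. Mutants carried Cre; Kmt2d fl/fl; mTmG/+ and controls carried Cre; Kmt2d fl/+; mTmG/+, so controls kept 1 undeleted allele, although the labels call them WT, and every embryo carried Cre and the mTmG reporter. Mesp1Cre, active in early cardiac mesoderm, was sampled as whole heart at E9.0 with 4 mutant and 4 control libraries. Mef2cAHF::Cre, active in the anterior heart field, was sampled as right ventricle and outflow tract at E11.5, and Tnnt2::Cre, active in cardiomyocytes, as whole heart at E11.5, each with 3 mutant and 3 control libraries. Per the labels, mutants and controls of a line formed 1 sequencing group. Cells outside each Cre domain were not deleted and were part of the tissue. The protocol text of the labels names E11.5 for all lines, while the sample labels of Mesp1Cre give E9.0, which was used here.

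Total gene counts were 21727258 to 28790705 per Mesp1Cre library, 25001020 to 37165163 per Mef2cAHF::Cre library and 35379996 to 45341870 per Tnnt2::Cre library. Kmt2d, listed under its older symbol Mll2, stood at 137 ± 7.6 CPM (counts scaled to a common library size; SD, n = 4) in Mesp1Cre mutants against 158 ± 5.3 (n = 4) in controls, a log2 fold change of -0.21 (SE 0.07, adjusted p = 0.0764). In Tnnt2::Cre it stood at 112 ± 4.6 against 143 ± 20.7 (n = 3 each; -0.35, SE 0.12, adjusted p = 0.327). In Mef2cAHF::Cre it was higher in the libraries titled mutant, at 190 ± 3.4 against 153 ± 5.9 (n = 3 each; 0.32, SE 0.06, adjusted p = 0.0359). The column names of the counts table give these 6 libraries the opposite genotypes, so the Mef2cAHF::Cre groups are called labelled mutant and labelled control by their titles, and signs are given under both readings. Counts were taken over the whole gene, including exons outside the deleted part. All 16 cardiomyocyte markers checked were detected in every group. In these bulk tissues, fewer cells of a type and less RNA per cell cannot be told apart.

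The 75 genes comprised 48 of the large subunit, 26 of the small subunit and Mrps36, whose product belongs to the 2-oxoglutarate dehydrogenase complex despite its name. Mrps30 and Mrps18a were counted with the large subunit, where their proteins sit. A bacterial counterpart was assigned to 46 genes and the other 29 were classed as mitochondrial only. In the mm9 annotation they lay on 17 chromosomes, with counted lengths of 95 to 8079 bases and a median of 1297. Exons of 26 genes overlapped those of another gene, and the counted length of 24 of these was shorter than their exons. The start of 16 genes lay head to head with that of a neighbour on the opposite strand. Near-identical copies of at least 100 bases at 95% identity or more elsewhere in the genome covered 50% or more of the exonic bases of Mrps16 (86.7%), Mrpl41 (72.8%), Mrpl27 (62.6%) and Mrpl32 (57.2%), whose counts are therefore uncertain. Mrpl53 was counted over 95 bases because 640 of its 735 exonic bases overlap Ccdc142 on the same strand, and it received 3 to 20 counts per library.

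All 75 genes were detected in all 20 libraries. By FPKM, which divides counts by length and depth and so allows genes to be ranked, Mrpl18 was highest, with a mean of 95.5 over the 20 libraries and a range of 75.9 to 124. Mrpl30 followed at 64.4 (49.8 to 78.4), and Mrpl52 at 59.1 (40.0 to 77.6). Ranges overlapped between neighbours in this order, but within each library Mrpl18 was above Mrpl30. At the low end stood Mrps35 at 4.45 (3.65 to 5.59), Mrpl53 at 4.00 (1.26 to 9.69) and Mrps26 at 3.58 (2.47 to 4.98), and these 3 ranges overlapped one another. The median gene level was 13.1 FPKM for the large subunit and 13.3 for the small subunit, so the medians were close. The 9 highest genes were all of the large subunit, and the highest gene of the small subunit had a mean of 31.3. By group, the median over the 75 genes of the group mean FPKM was 16.2 in Tnnt2::Cre mutants and 13.8 in their controls. It was 12.4 in Mesp1Cre mutants and 14.0 in their controls, and 11.03 in Mef2cAHF::Cre labelled mutants and 11.8 in labelled controls. These medians were not tested, and their depth includes abundant genes such as the erythroid ones. In the scaled fits below the median log2 fold change was -0.28 in Mesp1Cre and 0.09 in Tnnt2::Cre. In Mef2cAHF::Cre it was 0.03 by the titles, opposite to the FPKM order.

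**Figure D1:**
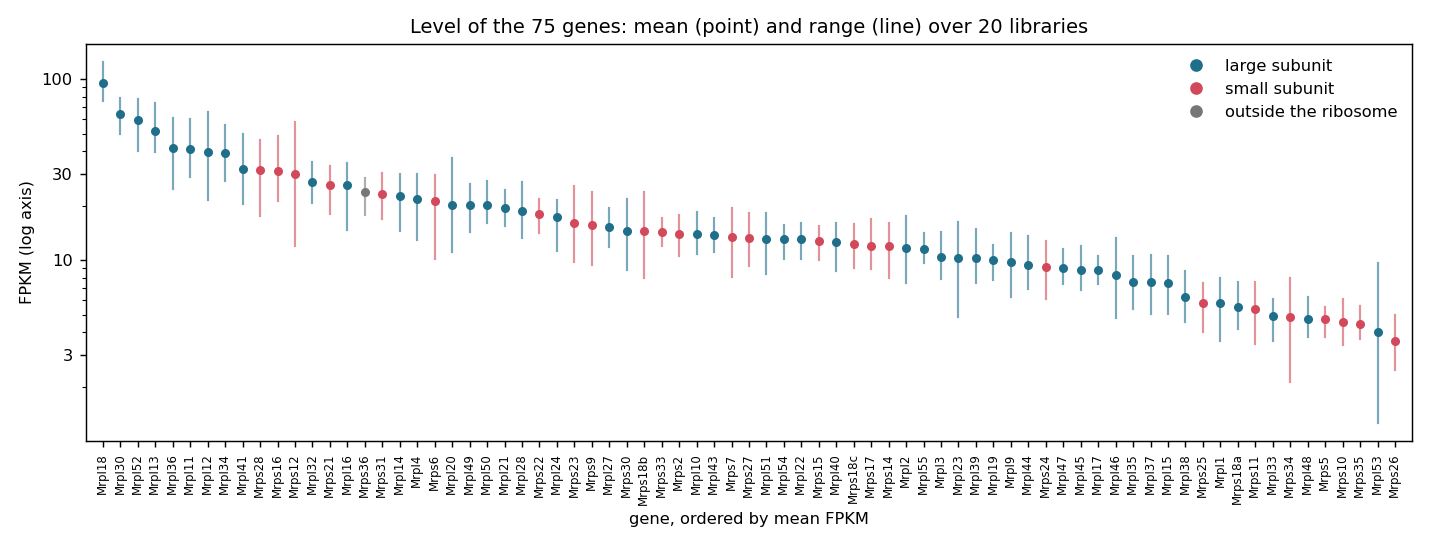
Level of each of the 75 mitochondrial ribosomal protein genes in FPKM on a log axis, ordered by the mean over 20 libraries (points); lines span the lowest to the highest library and colours mark the subunit. The order runs from Mrpl18 at 95.5 to Mrps26 at 3.58; the 9 highest genes are of the large subunit, and genes of both subunits follow from 31.3 down.

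Promoter sequences of 66 of the 75 genes were taken from RefSeq on GRCm38.p6, a different build from the mm9 of the counts, as windows from 250 bases before to 50 after each start. The windows were searched on both strands for 4 motifs that are widespread in promoters of nuclear genes for mitochondria or bound by Myc-type factors. The NRF1 motif (GCGCA, any base, GCGC) occurred in 12 of 66 genes (18.2%), against 7.17% of 17492 protein-coding genes. The ETS motif CCGGAAGT of GABP-type factors also occurred in 12 (18.2%), against 5.69%, and the YY1 motif AAGATGGCG in 7 (10.6%), against 2.14%. The E-box CACGTG occurred in 5 (7.58%), against 8.91%. None of the motifs contains another, and 31 genes held at least 1 of them.

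The 100 bases before the start of 5 genes that fell in Mesp1Cre mutants are printed to show what such a match looks like, with the matched letters in capitals. Mrpl36 (chr13:73330909-73331008, + strand) carries an E-box and, on the reverse strand, a YY1 match. Mrpl12 (chr11:120484537-120484636, +) and Mrps21 (chr3:95871515-95871614, -) carry an NRF1 match on the reverse strand, Mrps22 (chr9:98601680-98601779, -) an ETS match and Mrpl20 (chr4:155802778-155802877, +) an E-box.
Mrpl36: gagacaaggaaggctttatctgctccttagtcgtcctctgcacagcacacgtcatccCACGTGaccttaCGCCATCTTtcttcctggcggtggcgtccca
Mrpl12: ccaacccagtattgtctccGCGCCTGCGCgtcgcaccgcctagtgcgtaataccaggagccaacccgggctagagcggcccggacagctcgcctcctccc
Mrps21: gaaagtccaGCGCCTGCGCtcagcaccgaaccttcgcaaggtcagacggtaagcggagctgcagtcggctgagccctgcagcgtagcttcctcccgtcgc
Mrps22: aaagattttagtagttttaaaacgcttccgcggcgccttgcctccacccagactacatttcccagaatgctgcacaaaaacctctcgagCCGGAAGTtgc
Mrpl20: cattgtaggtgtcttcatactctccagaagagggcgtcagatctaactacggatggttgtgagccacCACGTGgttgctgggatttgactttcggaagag
Among the 14 genes that fell and have a window, the NRF1, ETS, YY1 and E-box motifs occurred in 2, 3, 4 and 3, and among the 51 that were tested and did not pass in 10, 9, 3 and 2.

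Whether deletion in early mesoderm altered these genes was asked first in Mesp1Cre hearts at E9.0. Of 74 genes tested, 17 fell in mutants and 0 rose at an adjusted p under 0.05 (edgeR quasi-likelihood test, Benjamini-Hochberg over all 15883 genes tested). The 17 make up 23.0% of the tested genes, while 5.29% of all genes fell and 6.17% rose. The log2 fold change was below 0 for 68 of the 74 (91.9%), against 50.2% of all genes, and the unadjusted p was under 0.05 for 36, against 26.9% of all genes. Its median was -0.28, with a range of -0.78 to 0.12, against a median of -0.00 over all genes. In 26 genes (35.1%) every mutant library lay below every control library, and in 0 genes above. Over all genes these shares were 8.7% and 9.02%. DESeq2 also called 0 genes higher and limma on log2 FPKM 0.

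The fall was moderate in size and reached genes of both subunits. Of the large subunit, 13 of 47 tested genes fell, with a median log2 fold change of -0.28, and of the small subunit 4 of 26, with a median of -0.26. Of the genes with a bacterial counterpart 11 of 46 fell, and of the mitochondrial-only genes 6 of 28. The 17 were read more deeply than the rest, with a median of 36.5 CPM in controls against 24.4 for the 57 genes that did not pass, and a median SE of 0.12 against 0.15. Their median counted length was 1282 bases against 1366.

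Mrpl36, which encodes a small large-subunit protein with a bacterial counterpart (chr13:73468465-73469631, mm9, + strand), had the largest fall. It measured 24.8, 37.1, 31.0 and 31.2 CPM in mutants and 58.0, 51.9, 46.2 and 57.5 in controls. Every mutant library was below every control library, and the gene fell by 41.9% (log2 fold change -0.78, SE 0.13, adjusted p = 0.00251). Mrpl46, a mitochondrial-only large-subunit gene, measured 5.51, 8.83, 7.85 and 7.78 CPM in mutants and 11.49, 10.1, 10.9 and 17.0 in controls. The groups did not overlap, but 1 control library was well above the other 3, and the log2 fold change was -0.72 (SE 0.21, adjusted p = 0.0449). The 173 bases its exons share with Mrps11 on the opposite strand were left out of its counted length, which was 1219 of 1392 bases.

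Mrps23, a mitochondrial-only small-subunit gene, measured 17.8, 17.5, 14.5 and 16.6 CPM in mutants and 27.2, 23.2, 23.1 and 30.3 in controls. Its mutant libraries lay close together and all below the controls, with a log2 fold change of -0.64 (SE 0.13, adjusted p = 0.00823). Mrps12, whose bacterial counterpart S12 sits at the decoding centre, measured 12.4, 17.5, 12.2 and 15.3 CPM in mutants and 26.7, 21.6, 19.3 and 22.0 in controls. The groups did not overlap, and the log2 fold change was -0.64 (SE 0.15, adjusted p = 0.0186). Its start lies head to head with Sars2, the mitochondrial seryl-tRNA synthetase gene, at a distance of 171 bases.

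Mrpl35 and Mrpl20 encode large-subunit proteins with bacterial counterparts. Mrpl35 measured 19.8, 27.8, 26.7 and 22.5 CPM in mutants and 41.7, 33.1, 37.7 and 33.5 in controls, a log2 fold change of -0.59 (SE 0.13, adjusted p = 0.0138). Mrpl20, whose E-box is shown above, measured 16.2, 16.3, 14.2 and 17.4 CPM in mutants and 24.4, 20.1, 28.5 and 22.5 in controls, a log2 fold change of -0.58 (SE 0.14, adjusted p = 0.0164). In neither gene did the groups overlap. Mrps22, a mitochondrial-only small-subunit gene, measured 16.8, 16.3, 19.8 and 18.5 CPM in mutants and 25.5, 21.7, 26.7 and 27.5 in controls, a log2 fold change of -0.51 (SE 0.12, adjusted p = 0.0205), again without overlap.

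**Figure D2:**
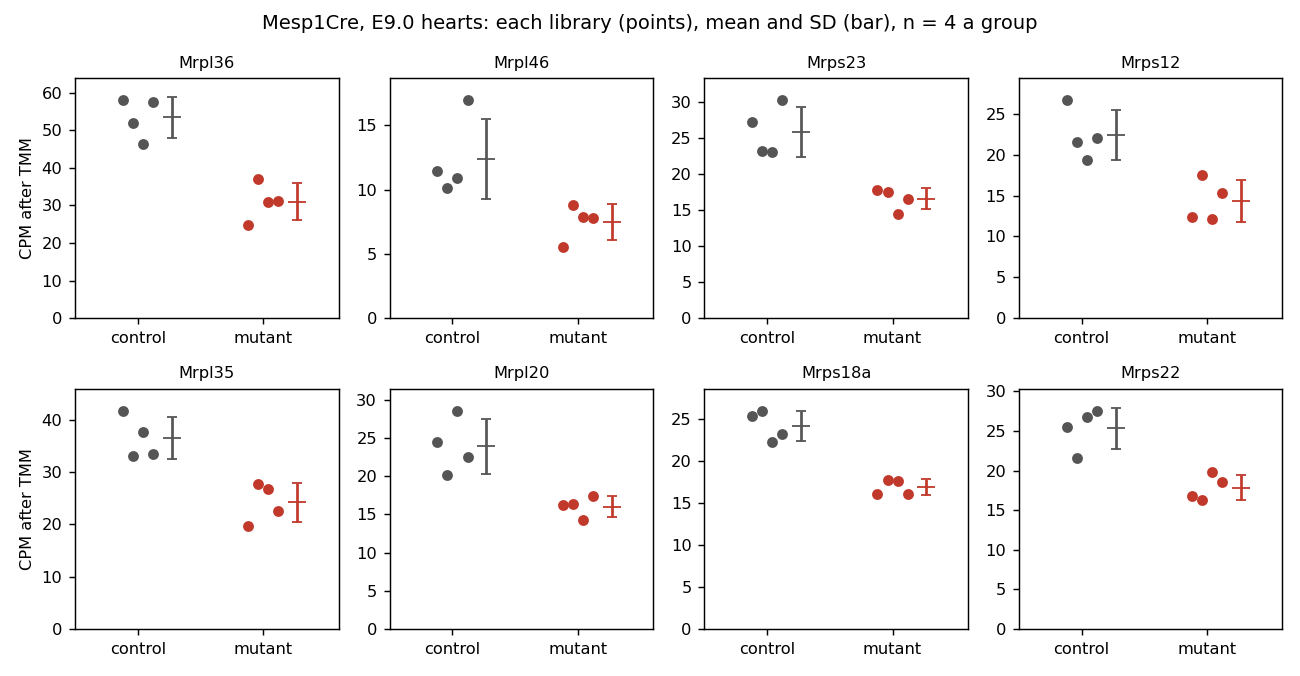
CPM of the 8 mitochondrial ribosomal protein genes with the largest falls in Mesp1Cre mutants, one panel each with an axis from 0; points are libraries and bars the mean and SD (n = 4 a group). In all 8 the mutant libraries lie below the control libraries.

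The 3 Mrps18 paralogs are built into different places of the ribosome. Mrps18a measured 16.1, 17.7, 17.6 and 16.0 CPM in mutants and 25.3, 25.9, 22.3 and 23.1 in controls, without overlap (-0.52, SE 0.11, adjusted p = 0.0126). Mrps18b measured 6.29, 7.86, 5.13 and 7.66 in mutants and 6.89, 7.72, 10.8 and 10.6 in controls (-0.42, SE 0.22, adjusted p = 0.252). Mrps18c measured 12.8, 15.9, 13.3 and 11.9 against 16.6, 18.3, 13.8 and 14.9 (-0.24, SE 0.15, adjusted p = 0.34). The groups overlapped for the b and c paralogs, so of the 3 genes Mrps18a alone passed the test, and differences among the paralogs were not tested.

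The most abundant member, Mrpl18, which encodes the counterpart of the bacterial 5S rRNA-binding protein L18, measured 59.5, 74.7, 66.6 and 64.4 CPM in mutants and 84.4, 99.6, 83.5 and 93.0 in controls. The groups did not overlap, and it fell by 26.5% (log2 fold change -0.44, SE 0.10, adjusted p = 0.0118). Copies of its sequence cover 44.8% of its exonic bases. Mrpl12, a counterpart of the bacterial stalk protein L7/L12, measured 36.1, 50.7, 49.5 and 41.8 CPM in mutants and 59.9, 64.2, 58.9 and 64.7 in controls, also without overlap (-0.48, SE 0.12, adjusted p = 0.02).

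Other abundant genes gave smaller differences. Mrpl30 measured 39.3, 48.7, 48.8 and 43.7 CPM in mutants and 52.2, 52.0, 56.0 and 51.4 in controls (-0.23, SE 0.10, adjusted p = 0.164), so that its groups did not overlap and the test was still not passed. Mrpl52 measured 20.3, 25.8, 28.6 and 22.1 against 29.8, 29.1, 32.0 and 27.2 (-0.29, adjusted p = 0.166), with overlap.

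Genes without a difference larger than the spread were Mrps30, at 22.3, 24.2, 27.4 and 20.8 CPM in mutants and 23.7, 25.3, 26.9 and 22.1 in controls (-0.05, adjusted p = 0.844), and the low-level genes Mrps26 (-0.05, adjusted p = 0.889) and Mrps35 (0.06, adjusted p = 0.816). These 3 differences were close to 0 and changed sign with the processing. Mrps36, the one product outside the ribosome, measured 24.8, 33.9, 33.6 and 28.3 CPM in mutants and 38.2, 34.6, 37.1 and 34.9 in controls (-0.26, SE 0.12, adjusted p = 0.184). Mrpl53 had too few counts to be tested in this line. The highest value of all was that of Mrps9, at 0.12, which did not pass the test.

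The number of genes that passed depended on single libraries and on the model. It was 6 without mutant replicate 1, 8 without mutant replicate 3 or control replicate 4, 9 without control replicate 1 or 2, 10 without mutant replicate 4 or control replicate 3, 20 without mutant replicate 2, 6 with embryo sex as a covariate, 5 with limma on log2 FPKM and 26 in 1 fit of all 6 groups, and in each of these cases 0 genes rose. The median of the log2 fold changes was -0.28 with sex as a covariate and ranged from -0.31 to -0.24 with 1 library left out, while on the FPKM scale it was -0.12 where the median of all genes was 0.15 or 0.11 by pseudocount, so that relative to all genes the members stood lower on both scales. Shares of all genes called in the refits above are not given here, so whether the counts over all genes moved alike is not shown. Sex was read from Y-linked genes, which all 4 mutants and 2 of 4 controls expressed.

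Other properties of the Mesp1Cre libraries moved with genotype. The summed share of counts on the 75 genes was 0.166, 0.192, 0.182 and 0.185% in mutants and 0.198, 0.192, 0.200 and 0.207% in controls, with the highest mutant level with the lowest control. The 16 cardiomyocyte markers took 5.90 to 7.42% of counts in mutants and 4.44 to 5.47% in controls, although 4 of them fell, 2 rose and 9 had a value below 0 (median log2 fold change -0.08). The 12 endothelial and endocardial markers took 0.091 to 0.107% against 0.060 to 0.069%. The 16 erythroid markers took 0.213 to 0.807% against 0.519 to 1.74%, and genes of the mitochondrial genome 1.11 to 1.77% against 2.06 to 2.21%. The 8 epicardial markers took 0.0101 to 0.0160% in mutants and 0.00489 to 0.00860% in controls, with Msln at 0 in each mutant, and the cytosolic ribosomal protein genes 3.32 to 3.49% against 2.82 to 3.14%, neither with overlap. The macrophage list was near 0 in all 8 libraries, with C1qa at 0 in each. The part of these shares in the fall was not tested. With the erythroid list left out of the counts 17 genes fell, and with the mitochondrial genome left out 15. These 2 refits only drop the listed genes before scaling, so they do not test a shift in cell types. Shares of all genes called in them are not given here.

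The other parts of the mitochondrial translation system, taken from lists of known components, gave fewer calls. Among all genes tested 5.29% fell and 6.17% rose. Of 7 mitochondrial ribosomal proteins with other symbols, 0 passed the test in either direction (median log2 fold change -0.12; 1 at an unadjusted p under 0.05). Of 19 genes for ribosome assembly and rRNA modification 1 fell and 0 rose, with a median of -0.28; this was C1qbp, a matrix protein needed for ribosome assembly, at 95.7 ± 4.57 CPM in mutants and 121 ± 10.7 in controls (-0.34, adjusted p = 0.0201). Of 13 translation factors 1 fell, Gfm1, the elongation factor that moves the ribosome along the message (-0.37, adjusted p = 0.0248), and the list's median was -0.13. Of 22 aminoacyl-tRNA synthetases and related enzymes 1 fell, Qrsl1, a subunit of the enzyme that makes glutaminyl-tRNA (-0.70, adjusted p = 0.0153), with a list median of -0.07. Of 13 regulators of mitochondrial transcription 1 fell, Pprc1, a coactivator of NRF1 (-0.43, adjusted p = 0.0248), with a list median of 0.04. The shares that fell were 5.26% of assembly genes, 7.69% of factors, 4.55% of synthetases and 7.69% of regulators. Each is 1 gene, too few to set against the share of all genes. At an unadjusted p under 0.05 there were 8 of 19 assembly genes and 8 of 22 synthetases, against 26.9% of all genes. Of the 13 factors there were 2, and of the 13 regulators 2.

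The lists with most members were the respiratory chain and the cytosolic ribosome, to be set against 5.29% of all genes that fell and 6.17% that rose. Of 75 nuclear genes for respiratory chain and ATP synthase subunits 13 fell and 1 rose, with a median of -0.14. Ndufa11, a complex I subunit, fell (-0.48, adjusted p = 0.0365), while Ndufv3, another complex I subunit, rose (0.72, adjusted p = 0.00208). Of 78 cytosolic ribosomal protein genes 2 fell and 1 rose, with a median of 0.03; the falls were Rplp1 (-0.41, adjusted p = 0.00655) and Rps27l (-0.38, adjusted p = 0.0129). Of 14 genes of the mitochondrial genome 8 fell and 2 rose, with a median of -0.87, led by mt-Nd1, a complex I subunit (-1.72, adjusted p = 0.000202). The mitochondrial ribosomal protein genes thus had a lower median than the cytosolic ones and the nuclear respiratory chain genes, and the differences between lists were not tested.

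**Figure D3:**
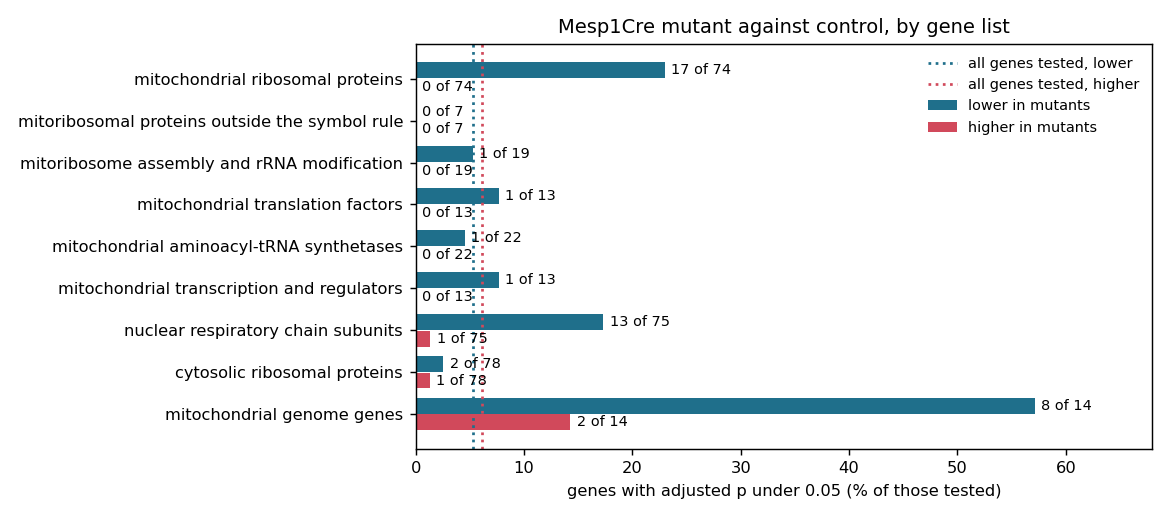
Percentage of the tested genes of each list that passed the test in Mesp1Cre mutants (blue bars lower, red bars higher, with the counts beside them); dotted lines mark the shares over all genes tested, 5.29% lower and 6.17% higher. Among the mitochondrial ribosomal protein genes 17 of 74 were lower and 0 higher.

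In the E11.5 lines the question was whether later or regional deletion altered the same genes. In Mef2cAHF::Cre 0 of 75 genes rose and 0 fell in the labelled mutants by edgeR, where 1.81% of all genes rose and 1.04% fell. At an unadjusted p under 0.05 there were 8, against 17.9% of all genes. DESeq2 called 1 gene higher and limma on log2 FPKM 0. The log2 fold change was above 0 for 45 genes, against 48.8% of all genes, with a median of 0.03 and a range of -0.29 to 0.35. Read by the column names, every sign turns and the median is -0.03. The summed share of counts on the 75 genes was 0.158, 0.153 and 0.155% in labelled mutants and 0.167, 0.165 and 0.166% in labelled controls, without overlap. On the FPKM scale the median was -0.10 where that of all genes was -0.13. Erythroid markers took 2.51 to 4.64% of counts in labelled mutants and 0.837 to 3.29% in labelled controls, and their part in these shares was not tested.

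Mrps21, chosen here after its values were seen, had the largest value in this line by the titles and, at -0.35, the lowest by the column names. It measured 29.4, 30.9 and 29.5 CPM in labelled mutants and 24.0, 20.9 and 25.6 in labelled controls. The groups did not overlap, but the test was not passed (log2 fold change 0.35, SE 0.09, adjusted p = 0.0858). Near-identical copies cover 41% of the exonic bases of Mrps21. Mrpl12 measured 33.8, 30.2 and 33.6 CPM in labelled mutants and 38.1, 30.1 and 37.1 in labelled controls, and Mrps12 11.4, 8.8 and 13.4 against 10.6, 7.9 and 11.1, with overlap in both. The 17 genes that fell in Mesp1Cre had values of -0.23 to 0.35 here, 10 above and 7 below 0, with a median of 0.02 by the titles, and 7 above and 10 below 0, with a median of -0.02, by the column names.

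In Tnnt2::Cre 0 of 75 genes rose and 0 fell by edgeR, DESeq2 or limma, where 0.0763% of all genes rose and 0.217% fell by edgeR. By edgeR 13 of all 17045 genes tested rose and 37 fell, so 0 calls among the 75 says little about these genes. At an unadjusted p under 0.05 there were 5 of the 75, against 11.9% of all genes. The log2 fold change was above 0 for 48 genes, against 50.7% of all genes, with a median of 0.09 and a range of -0.22 to 0.57, the top value being that of the barely counted Mrpl53. The summed share of counts was 0.230, 0.223 and 0.239% in mutants and 0.209, 0.189 and 0.211% in controls, without overlap. Erythroid markers took 2.12 to 12.04% of counts in these mutants and 9.23 to 15.0% in controls, and their part in that share was not tested.

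Mrpl12 measured 83.7, 66.8 and 82.9 CPM in Tnnt2::Cre mutants and 62.3, 63.2 and 73.1 in controls, with overlap. Mrps12 measured 36.8, 28.9 and 38.1 CPM in mutants and 35.8, 29.6 and 39.1 in controls, 2 nearly equal groups. Mrps18a measured 26.7, 22.6 and 26.5 CPM in mutants and 25.04, 20.02 and 24.2 in controls, also with overlap. The 17 genes that fell in Mesp1Cre had values of -0.14 to 0.23 here, 12 above and 5 below 0, with a median of 0.10.

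**Figure D4:**
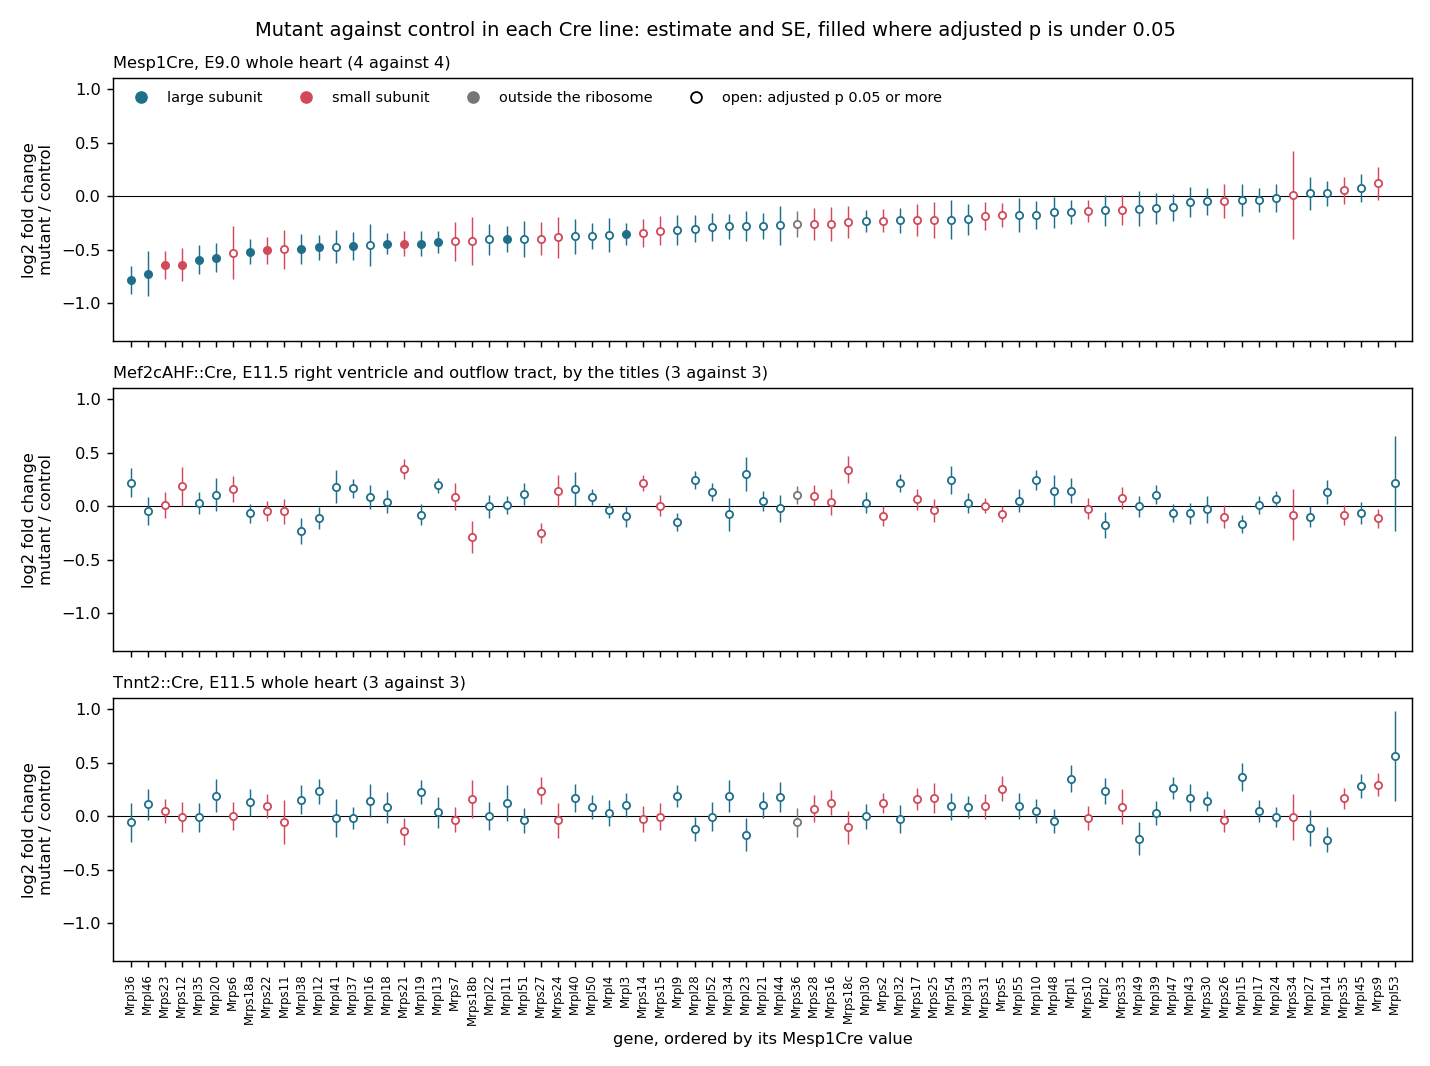
Log2 fold change of mutant over control, with its SE, for each mitochondrial ribosomal protein gene in each Cre line, ordered by the Mesp1Cre value; colours mark the subunit and filled points an adjusted p under 0.05. Most genes lie below 0 in Mesp1Cre (median -0.28) and around 0 in Mef2cAHF::Cre (0.03 by the titles) and Tnnt2::Cre (0.09).

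Whether the mutant effect differed between lines was tested directly in 1 fit of all 20 libraries. Mesp1Cre and Tnnt2::Cre, both whole heart, differ in line, stage and sequencing group. Mef2cAHF::Cre and Tnnt2::Cre, both E11.5, differ in line, tissue and sequencing group, and Mef2cAHF::Cre and Mesp1Cre in all 4. These cannot be told apart. Sex, read from Y-linked genes only, was unbalanced too and was not a covariate here. Y-linked genes reached 10 CPM in 4 of 4 Mesp1Cre mutants and 2 of 4 Mesp1Cre controls. In Tnnt2::Cre they did so in 1 of 3 mutants and 2 of 3 controls. In Mef2cAHF::Cre they did so in 0 of 3 labelled mutants and 1 of 3 labelled controls. The Mesp1Cre effect was lower than the Tnnt2::Cre effect for 71 of 75 genes, with a median difference of -0.40 on the log2 scale. It passed the test for 5 genes lower and 0 higher, where 1.81% of all 18391 genes were lower and 1.23% higher, and 33 had an unadjusted p under 0.05, against 19.2% of all genes. The 5 were Mrpl12 (-0.73, adjusted p = 0.0227), Mrps23 (-0.71, 0.0377), Mrpl19 (-0.69, 0.0192), Mrps18a (-0.66, 0.0194) and Mrps22 (-0.62, 0.0348). DESeq2 called 18 lower and 0 higher, and the shares it called over all genes are not given here. The count was 0 without Tnnt2::Cre mutant replicate 3 or control replicate 2, 2 without mutant or control replicate 1 of that line, 3 without Mesp1Cre control replicate 1 or 4, and 12 without Tnnt2::Cre mutant replicate 2 or Mesp1Cre mutant replicate 2.

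The Mef2cAHF::Cre effect, by the titles, was higher than the Mesp1Cre effect for 11 genes and lower for 0, where 5.61% of all genes were higher and 5.68% lower, with a median difference of 0.34. At an unadjusted p under 0.05 there were 33, against 26% of all genes. By the titles the largest differences were those of Mrpl36 (1.02, adjusted p = 0.0073), Mrps12 (0.84, 0.0311) and Mrps21 (0.81, 0.00359). By the column names these were 0.58 (adjusted p = 0.217), 0.48 (0.352) and 0.11 (0.794), the median difference was 0.24, and 2 genes were higher, Mrpl38 (0.74, 0.0467) and Mrps18a (0.60, 0.0452), of which Mrps18a is also among the 11. On the FPKM scale 2 or 3 genes were higher by pseudocount, with a median difference of 0.03 where that of all genes was -0.27 or -0.18. Shares of all genes called by the column names or on the FPKM scale are not given here. With 1 library left out the count was 4 without labelled control replicate 2 of Mef2cAHF::Cre, 5 or 6 without 1 of its labelled mutants, 7 without replicate 1 of the Mesp1Cre mutants or controls and 18 without Mesp1Cre mutant replicate 2. Against Tnnt2::Cre the Mef2cAHF::Cre effect, by the titles, passed for 0 genes in either direction by edgeR and DESeq2. By edgeR 1.63% of all genes were higher and 1.56% lower. The median difference was -0.04, and 7 genes had an unadjusted p under 0.05, against 15.3% of all genes. Limma on log2 FPKM, also by the titles, called 8 genes lower, and its share of all genes is not given here. For the column names the median of this contrast is given with the processing, without a count of genes passing.

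Levels at E11.5 and E9.0 were compared in whole hearts, Tnnt2::Cre against Mesp1Cre, within controls and within mutants. Stage, Cre line and sequencing group cannot be told apart in either comparison. Sex by Y-linked genes was not a covariate here. Y-linked genes reached 10 CPM in 2 of 3 Tnnt2::Cre controls and 2 of 4 Mesp1Cre controls. Among mutants they did so in 1 of 3 Tnnt2::Cre and 4 of 4 Mesp1Cre libraries, so sex by this measure was unbalanced there. CPM here were scaled within the libraries of each comparison, so the values of a library differ slightly from those above. In controls 14 of 75 genes (18.7%) were higher at E11.5, where 19.6% of all genes were, and 4 (5.33%) were lower, where 18.8% of all genes were. At an unadjusted p under 0.05 there were 23, against 46.8% of all genes, and 46 were above 0, against 49.5% of all genes, with a median log2 fold change of 0.06. The number higher was 4 without Tnnt2::Cre control replicate 3, and 9 without its replicate 1 or without Mesp1Cre control replicate 2.

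In controls Mrps12 rose most, from 25.1, 20.05, 18.0 and 20.7 CPM at E9.0 to 35.0, 28.9 and 38.2 at E11.5, without overlap (log2 fold change 0.70, adjusted p = 0.00217). Mrps26, a low-level mitochondrial-only gene of the small subunit, rose from 13.2, 10.7, 14.1 and 16.2 to 20.4, 20.6 and 19.96 (0.58, adjusted p = 0.00731). The others among the 8 largest rises were Mrpl41 (0.64), Mrpl28 (0.54), Mrps7 (0.52), Mrps23 (0.51), Mrps16 (0.51) and Mrpl14 (0.47). Their adjusted p was 0.00293 to 0.0193, and the counts of Mrpl41 and Mrps16 are uncertain because of near-identical copies elsewhere in the genome. Lower at E11.5 was Mrpl1, a counterpart of the bacterial L1, at 21.6, 20.5 and 16.2 CPM against 26.1, 34.4, 30.5 and 28.9, without overlap (-0.63, adjusted p = 0.00398). The other 3 lower genes were Mrpl39 (-0.57), Mrpl50 (-0.53) and Mrps2 (-0.38).

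In mutants 37 of 75 genes (49.3%) were higher at E11.5, where 18.8% of all genes were, and 0 were lower, where 17.1% of all genes were. DESeq2 and limma on log2 FPKM each called 1 lower. At an unadjusted p under 0.05 there were 52, against 46.2% of all genes, and 68 were above 0, against 50.3% of all genes. The median log2 fold change was 0.46, with a range of -0.39 to 1.36, and in 46 genes every E11.5 library lay above every E9.0 library, as in 23.3% of all genes. With 1 library left out 25 to 44 genes were higher.

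Mrps12 rose most in mutants too, from 12.7, 17.9, 12.4 and 15.6 CPM to 40.1, 31.5 and 41.3 (1.36, adjusted p = 0.000328). Mrps23 rose from 18.2, 17.9, 14.8 and 17.0 to 40.9, 37.7 and 41.4 (1.24, adjusted p = 0.000101). Mrpl12 rose from 36.8, 51.8, 50.5 and 42.7 to 91.2, 72.9 and 89.9 (0.90, adjusted p = 0.00123). In none of these 3 genes did the stages overlap. The others among the 8 largest rises were Mrpl20 (1.21), Mrpl41 (1.12), Mrps7 (0.94), Mrps16 (0.92) and Mrpl9 (0.83). Their adjusted p was 0.000477 to 0.0035, and the counts of Mrpl41 and Mrps16 are uncertain, as in controls.

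Controls and mutants share no library, and 12 genes were higher at E11.5 in both, which is 85.7% of those higher in controls and 32.4% of those higher in mutants. Over all genes 2035 were higher in both, 62.3% of those higher in controls and 65.0% of those higher in mutants. Mrpl14 and Mrpl49 were the 2 genes higher in controls that did not pass in mutants. The difference between the stage effects of mutants and of controls is the same contrast as that between the Mesp1Cre and Tnnt2::Cre effects, with the sign turned, so its test is the one given above, with 5 genes passing.

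**Figure D5:**
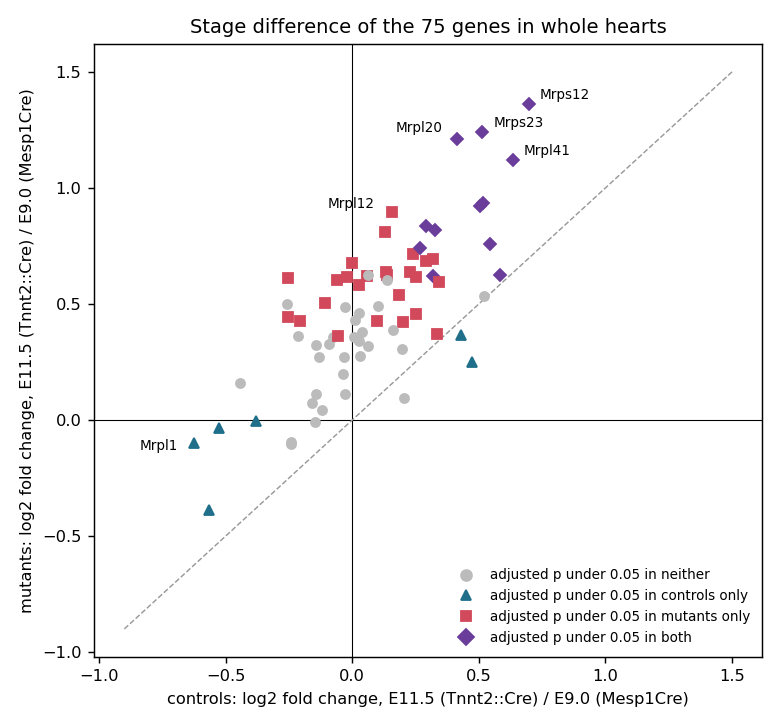
Log2 fold change from E9.0 (Mesp1Cre) to E11.5 (Tnnt2::Cre) whole hearts for each of the 75 genes, controls on the x axis and mutants on the y axis; the dashed line marks equal values, and colours and shapes mark in which comparison a gene passed the test. Most points lie above the line, with medians of 0.06 in controls and 0.46 in mutants.

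The partner lists differed in how many genes passed with stage. The shares of all genes were 19.6% higher and 18.8% lower in controls and 18.8% and 17.1% in mutants. In mutants 58 of 76 nuclear respiratory chain genes were higher at E11.5 and 1 lower, with a median of 0.61, and in controls 43 and 1, with a median of 0.33. Of the cytosolic ribosomal protein genes 36 of 78 were higher and 9 lower in mutants (median 0.22), and 33 and 14 in controls (0.18). Of the 13 translation factors 3 were higher in mutants, among them Tufm (0.89), which delivers aminoacyl-tRNA to the mitochondrial ribosome, and Tsfm (0.92), which recycles Tufm, and 0 passed in controls in either direction, where 2 had an unadjusted p under 0.05. Of the 19 assembly genes 7 were higher and 2 lower in mutants, and 3 were higher and 3 lower in controls. Of the 22 synthetases and related enzymes 2 were higher and 2 lower in mutants, and 3 and 3 in controls. Of the 13 regulators 2 were higher and 0 lower in mutants, and 1 and 2 in controls, and of the 7 ribosomal proteins with other symbols 1 was higher and 1 lower in each. Of the 14 genes of the mitochondrial genome 6 were higher and 5 lower in mutants (median 0.40), and 0 and 7 in controls (-0.47).

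Markers of cell types differed with stage too. All 16 erythroid markers were higher at E11.5 in both comparisons. Of 11 macrophage and white blood cell markers 8 were higher in controls (median 2.40) and 10 in mutants (5.67). Of the epicardial markers 7 of 8 were higher in controls and 6 of 7 in mutants, and of 10 mesenchyme and smooth muscle markers 7 were higher in each, with 2 lower in controls and 1 in mutants. Markers of 2 cell types went both ways. Of 12 endothelial and endocardial markers 5 were higher and 2 lower in controls, and 2 and 3 in mutants. Of 16 cardiomyocyte markers 7 were higher and 4 lower in controls, and 8 and 4 in mutants. The part of these markers in the stage differences was not tested.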

How the data were processed

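Members and gene lists were chosen with earlier results of these data known. The authors aligned paired reads to mm9 with TopHat2 2.0.8b and deposited raw counts per gene beside FPKM values. The paper names featureCounts for the counting, while the deposited values are labelled as computed by USeq. The sources also differ on the library kit. Per the deposited table, 40 columns (counts and FPKM of 20 libraries) were used and 20 further per-sample columns were not used. The authors' columns of fold changes and p-values were not used.

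Counts were tested with edgeR 4.0.16 in R 4.3.3 (filterByExpr, TMM scaling, quasi-likelihood F test), group against group, with Benjamini-Hochberg adjustment over all genes tested, and calls at an adjusted p under 0.05. Differences between lines were contrasts in 1 fit of 6 groups. DESeq2 1.42.0 and limma 3.58.1, on log2(FPKM + 0.1) and log2(FPKM + 1), were alternatives, with other scalings, filters, a replicate block and left-out libraries. Sex (from Y-linked genes) was added after seeing the data, for Mesp1Cre mutants against controls only. Xist was not in the table to check it, and a library pooled from embryos of both sexes could be read as male. The tests were tested on simulated data first. Named in each comparison were the 8 largest called rises and falls, and always the 3 highest and 3 lowest members by FPKM, the Mrps18 paralogs, Mrpl12, Mrps12, Mrps30 and Mrps36. The n per genotype given in the paper equals the number of libraries. Whether each library came from 1 embryo is not stated, so p-values measure the spread between libraries.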

Additional observations from a re-analysis of the deposited data

Results flagged for a closer look

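In groups of 4 libraries, the gap from the highest or lowest value to its neighbour was divided by the range of all 4. Of 60 combinations of a measure and a group 3 stood apart, no more than the 1 in 20 that chance gives. Mesp1Cre control replicate 1 had the highest total, with 28790705 counts. Mrpl30 was highest in Mesp1Cre control replicate 3, at 56.0 CPM, and Mrps35 in Mesp1Cre mutant replicate 2, at 29.6 CPM.

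The mutant effect differed between lines by the test of the difference itself (edgeR, Benjamini-Hochberg over all genes) for these genes. The Mesp1Cre effect was below the Tnnt2::Cre effect for Mrpl12 by a log2 difference of -0.73, for Mrps23 by -0.71, for Mrpl19 by -0.69, for Mrps18a by -0.66 and for Mrps22 by -0.62. The Mef2cAHF::Cre effect, by the sample titles, was above the Mesp1Cre effect for Mrpl36 by 1.02, Mrps12 by 0.84, Mrps21 by 0.81, Mrpl20 by 0.70, Mrps23 by 0.67, Mrpl37 by 0.65, Mrpl35 by 0.64, Mrpl13 by 0.64, Mrps14 by 0.58, Mrpl28 by 0.57 and Mrps18a by 0.47. Under the column names these 11 differences were, in the same order, 0.58, 0.48, 0.11, 0.49, 0.65, 0.31, 0.58, 0.25, 0.15, 0.07 and 0.60, of which that of Mrps18a passed, as did Mrpl38 at 0.74. Stage and sequencing group differ between Mesp1Cre and both other lines, and tissue between Mesp1Cre and Mef2cAHF::Cre, and these cannot be told apart from the line. Sex, read from Y-linked genes only, was also unevenly spread over the groups and was not a covariate in these tests.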

How the results depend on the processing

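Genes lower in Mesp1Cre mutants numbered 17 as reported, 5 with limma on log2(FPKM + 0.1) or log2(FPKM + 1), 26 in 1 fit of 6 groups, 11 with a replicate block, 6 with sex as a covariate and 6 to 20 with 1 library left out. The median log2 fold change of the members there was -0.12 on both FPKM scales and -0.31 to -0.24 with 1 library left out. In Mef2cAHF::Cre 1 gene was higher by DESeq2 and 1 without a filter on low counts, and the median was -0.10 and -0.095 on the FPKM scales, -0.03 under the column names and -0.01 to 0.07 with 1 library left out. In Tnnt2::Cre the median was 0.19 with log2(FPKM + 0.1), 0.18 with log2(FPKM + 1) and 0.01 to 0.15 with 1 library left out. Higher at E11.5 in controls were 9 with a replicate block and 4 to 12 with 1 library left out, and 3 to 6 were lower; the median was 0.01 on both FPKM scales and -0.00 to 0.15 with 1 library left out. In mutants 17 were higher with a replicate block and 25 to 44 with 1 library left out, 1 was lower under upper-quartile scaling, DESeq2, both FPKM scales and the fit of 6 groups, and the median was 0.34 and 0.32 on the FPKM scales and 0.40 to 0.54 with 1 library left out. Between Mesp1Cre and Tnnt2::Cre effects DESeq2 called 18 lower, and 0 to 12 were lower with 1 library left out (median -0.47 to -0.31). Between Mef2cAHF::Cre and Tnnt2::Cre effects, by the titles, 8 were lower on both FPKM scales (median -0.29 and -0.25), and the median was -0.11 to 0.03 with 1 library left out. Under the column names the median was -0.12, and the count of genes passing is not given here. Between Mef2cAHF::Cre and Mesp1Cre effects 2 and 3 were higher on the FPKM scales (median 0.032 and 0.028), 2 under the column names (median 0.24) and 4 to 18 with 1 library left out (median 0.28 to 0.37). Shares of all genes called under these alternatives are not given here.

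The replicate block pairs libraries by number. In Mesp1Cre, mutants and controls of the same number also share the first number of a code in the labels whose meaning is not given, and with that code as a block 12 genes were lower. Same-numbered libraries did not deviate together, and the cause of the lower counts was not tested. Of 592 values of single genes under other alternatives, 543 kept direction and side of the threshold, 43 no longer passed and 6 turned sign; with 1 library left out, 388 of 466 kept both, 74 no longer passed and 4 turned sign. These cover the named genes in the comparisons where they passed and the always-named genes in Mesp1Cre; among them the sign changes were in Mesp1Cre values near 0, and other genes were not counted. For Mrps26, Mesp1Cre mutant against control, the value became 0.11 and 0.088 on the FPKM scales and ranged from -0.14 to 0.044 with 1 library left out. For Mrps30, Mesp1Cre mutant against control, it became 0.10 on both FPKM scales, 0.048 with sex and ranged from -0.12 to 0.021. For Mrps35, Mesp1Cre mutant against control, it became -0.012 with sex and ranged from -0.0084 to 0.14. Depth limits Mrpl53, with 3 to 20 counts per library.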
